A study of Danio rerio with 4 samples.

Results

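The cells described here are those of the zebrafish trunk that carried UMIs (unique molecular identifiers, each standing for 1 captured transcript) of at least 3 of 6 matrix genes: col9a1b, matn3a, epyc, ucmab, col2a1a and col9a2. They numbered 517 of 19611 retained cells, and the working label for them was chondrocyte or sclerotome cells. There were 2 libraries of flt1 mutant trunks (genotype flt1ka604) and 2 of WT trunks, all at 3 days post-fertilisation, from embryos whose heads had been cut off, with droplet sequencing that reads the 3′ end of each transcript. The flt1ka604 allele is a small deletion with an early stop codon that leaves a truncated Flt1, a Vegf receptor that in the embryo acts mainly as a trap for Vegf. The labels state no date, clutch or number of embryos for any library.

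Cartilage cells secrete a matrix of fibrils built from type II, IX and XI collagen, with aggregating proteoglycans and matrilins bound to them. The notochord, the axial rod around which vertebrae later form, is wrapped in a sheath that also contains type II and type IX collagen, so that these collagens alone do not separate the tissues. Sclerotome is the part of the somite that gives rise to the cells of the vertebrae, ribs and tendons.

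The 6 genes that chose the cells encode the main chain of type II collagen (col2a1a), 2 chains of type IX collagen (col9a1b, col9a2), a matrilin that bridges collagen fibrils (matn3a), the small leucine-rich proteoglycan epiphycan (epyc) and a Gla-rich protein of cartilage (ucmab). There were 130 and 83 such cells in flt1 mutant replicates 1 and 2, and 79 and 225 in WT replicates 1 and 2. Their median depth was 10094.5 and 9901 UMIs in the flt1 mutants and 11537 and 9896 UMIs in WT, whereas all retained cells had medians of 5037.5 and 779 UMIs in the flt1 mutants and 8033 and 3760 UMIs in WT. In all, 101 barcodes occurred in more than 1 library and 1 of the 517 barcodes also occurred elsewhere. No barcode was a member in more than 1 library.

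The number of genes detected did not form an even scale. Exactly 3 genes were detected in 243 cells, 4 in 101, 5 in 27 and all 6 in 146. Cells with 3 genes had a median of 7 UMIs of the 6 genes, or 0.181% of their UMIs. Cells with all 6 had a median of 3360.5, or 19.6% of their UMIs. Just outside the limit, 981 cells with 2 genes had a median of 2 such UMIs, or 0.0436% of their UMIs. The rule therefore took in a group in which these genes made up a large part of the RNA and a larger number of cells in which they were scarce: the share was at most 0.1% in 113 cells and over 10% in 132.

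Summed over the members of a library, the 6 genes were far above their levels elsewhere, as the rule required. In CPM (counts scaled to the same library total), col2a1a had 42548 and 35027 in the flt1 mutants and 38387 and 27406 in WT, and a mean of 43.5 in all other retained cells. For col9a1b the values were 15309 and 12824 CPM in the flt1 mutants and 12498 and 8811 CPM in WT, with a mean of 6.42 CPM in other cells. Among genes the rule did not use, the largest ratios to other cells were led by cmn, with 2933 and 2687 CPM in the flt1 mutants and 2543 and 2177 CPM in WT. In all, 1262 genes had at least 50 CPM in members of every library, and 532 of them were higher in members than in other cells in all 4. The floor of 50 CPM was set on members only, which favours genes that are high in them. Lists of markers of muscle, erythroid, epidermal, neural, immune and fibroblast cells had no gene that was higher in members in all 4 libraries.

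**Figure D1:**
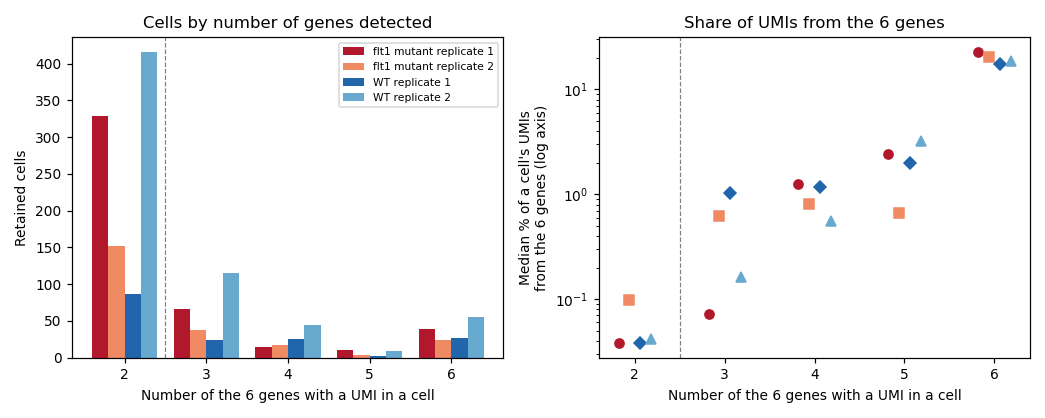
Cells by how many of the 6 genes they carried (left, bars are numbers of retained cells in each library) and the median percentage of a cell's UMIs from the 6 genes (right, log axis, 1 point per library). The dashed line marks the limit of 3 genes. The libraries with all 6 genes sat between 17.5% and 22.9%, and those with 2 genes between 0.0381% and 0.0992%.

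Some cells that should lack these genes also met the rule. Among 1659 erythroid cells, taken as those with over 50% of their UMIs from the erythroid list, 26 met it (1.57%). The erythroid cells had a median of 16847 UMIs, deeper than the members of any library. A UMI of col2a1a was present in 95.0% of the 517 cells, against 14.6% of the 1633 erythroid cells left without those 26, whose removal lowers the share. For col9a1b the shares were 64.6% of the 517 cells and 6.06% of these erythroid cells, and for ucmab 54.4% of the 517 cells and 1.41% of these erythroid cells.

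The members were divided by Ward clustering into 8 subgroups, numbered by the share of UMIs from the 6 genes. These come from the same values that chose the cells, so that they are described without a test. Subgroup 1 had 140 cells (40 and 21 in the flt1 mutants, 25 and 54 in WT), of which 135 carried all 6 genes. It held 32.3% of the members' UMIs. Subgroup 2 had 105 cells (12 and 28 in the flt1 mutants, 35 and 30 in WT), of which 1 carried all 6 genes. The 6 genes made up a median of 19.95% of the UMIs of a cell in subgroup 1 and 1.55% in subgroup 2.

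The data went against the sclerotome part of the label in subgroup 1, and did not settle the cartilage part there. Cartilage matrix genes were abundant in it together with notochord markers, and type II and IX collagen occur in both tissues. The cartilage genes matn1 and col9a1a had UMIs in 2 and 0 of the 140 cells of subgroup 1. Its leading genes by fold over the other members were si:ch73-23l24.1, zgc:113232, zmp:0000000760, col9a1b, cmn, matn3a, epyc, matn3b, chad and krt94. The genes of the notochord marker list summed to 15117 CPM in it, and those of the sclerotome list to 19.8 CPM. The cartilage matrix list summed to 70065 CPM in it and to 26869 CPM in subgroup 2, and among the 50 leading genes of subgroup 1 were 6 of the cartilage matrix list and 4 of the notochord list. The cmn gene, which encodes calymmin, a protein of the notochord sheath in zebrafish, had 7689 and 8153 CPM in the flt1 mutants and 6582 and 8136 CPM in WT. It had a UMI in 139 of the 140 cells. For tbxta, the Brachyury transcription factor of the notochord, the values were 1271 and 2028 CPM in the flt1 mutants and 1426 and 1239 CPM in WT, with a UMI in 120 cells. All 4 libraries were high for both genes. These cells are called cmn/tbxta cells below.

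Other genes of that list were also present in the cmn/tbxta cells, though not all. Of its 13 genes in the files, 11 had a UMI there. The emilin3a gene of that list had 0 UMIs in the cmn/tbxta cells and 148 in subgroup 2. The hedgehog ligand gene shha had 878 and 971 CPM in the flt1 mutants and 757 and 794 CPM in WT. The type VIII collagen gene col8a1a had 1890 and 1793 CPM in the flt1 mutants and 1110 and 1150 CPM in WT. The foxa2 gene, a transcription factor of the axial midline, is in the floor plate list and not in the notochord list. It was lower, at 18.9 to 32.3 CPM, and had a UMI in 45 cells. Matrix genes that the rule did not use were also abundant. Per library, col11a1a (type XI collagen) ranged between 26472 and 32124 CPM, col9a3 (the third chain of type IX collagen) between 10669 and 13071 CPM, sparc (osteonectin) between 17353 and 19358 CPM, and cnmd (chondromodulin, an inhibitor of vessel growth) between 10277 and 12812 CPM. The genes ihhb (a hedgehog ligand) and bglap (osteocalcin), of the hypertrophy and bone list, had UMIs in 39 and 14 of the 140 cells.

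Subgroup 2 carried cartilage genes with few or no UMIs in the cmn/tbxta cells. It was led by matn1, fgfbp2b, col9a1a, tnxba, otos, mia, fibina, cthrc1a, hapln1b and foxc1b. The matrilin 1 gene matn1, a marker of cartilage, had 7957 and 2530 CPM in the flt1 mutants and 5508 and 5367 CPM in WT, from 54 of the 105 cells. The type IX collagen gene col9a1a had 2668 and 2019 CPM in the flt1 mutants and 4617 and 3800 CPM in WT, from 101 cells. For col9a1a the cmn/tbxta cells had 0 UMIs in 140 cells, which allows a share of up to 2.14% of cells with a UMI. Only 2 of the 105 cells had a UMI of cmn and 2 of tbxta. These cells are called matn1/col9a1a cells below.

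**Figure D2:**
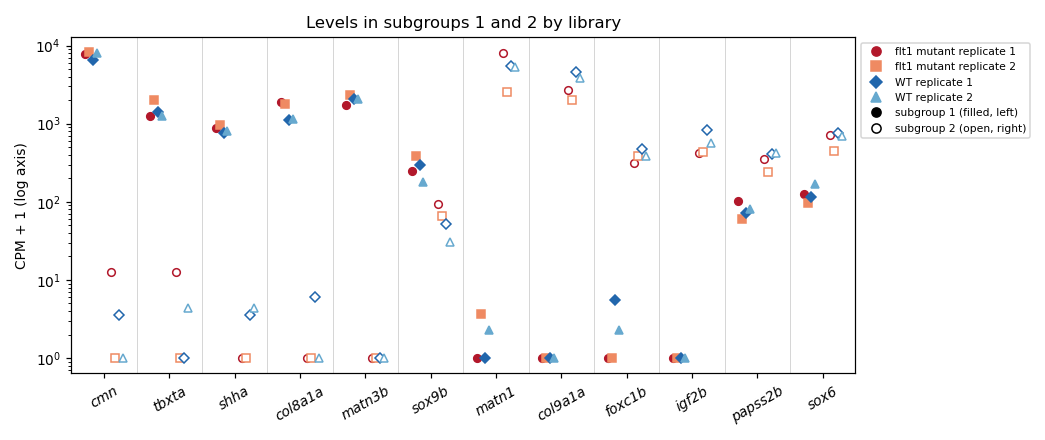
Levels of 12 genes (CPM + 1, log axis) in the cmn/tbxta cells of subgroup 1 (filled points, left of each pair) and the matn1/col9a1a cells of subgroup 2 (open points, right), 1 point per library. From cmn to sox9b all filled points lie above the open ones, and from matn1 to sox6 all open points lie above the filled ones.

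Transcription factors of the sclerotome were present in the matn1/col9a1a cells, where the sclerotome list summed to 1181 CPM, and in subgroup 4, where it summed to 1981 CPM. Per library, the matn1/col9a1a cells had 1081 and 1167 CPM in the flt1 mutants and 1462 and 853 CPM in WT. The list summed to similar values in fibroblast cells outside the members (defined below). These were 1107 and 1099 CPM in the flt1 mutants and 1134 and 999 CPM in WT. The sum thus did not separate the matn1/col9a1a cells from fibroblast cells. The forkhead gene foxc1b had 317 and 385 CPM in the flt1 mutants and 471 and 383 CPM in WT, with a UMI in 93 cells, against at most 4.62 CPM in any library of the cmn/tbxta cells. The bHLH gene twist1a had 329 and 303 CPM in the flt1 mutants and 331 and 120 CPM in WT. The homeobox gene nkx3-2, which marks sclerotome and developing joints, had 141 and 218 CPM in the flt1 mutants and 278 and 80.0 CPM in WT. For all 3 genes every library was higher in the matn1/col9a1a cells than in any library of the cmn/tbxta cells. Subgroup 4 had more twist1a (558 CPM) and nkx3-2 (510 CPM) than either.

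Among the Sox genes that drive cartilage, the 2 subgroups differed. The sox6 gene averaged 651 ± 136 CPM in the matn1/col9a1a cells and 125 ± 31.6 CPM in the cmn/tbxta cells (SD over libraries, n = 4 each). The copies of Sox9, the master regulator of cartilage in vertebrates, were split. In the matn1/col9a1a cells sox9a averaged 101 ± 28.8 CPM and sox9b 59.8 ± 26.8 CPM. In the cmn/tbxta cells sox9a averaged 32.3 ± 14.0 CPM and sox9b 277 ± 86.5 CPM. The barx1 gene, a regulator of jaw cartilage, had UMIs in 23 of 105 matn1/col9a1a cells and in 0 of 140 cmn/tbxta cells.

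Position genes within the matn1/col9a1a cells differed by library. The heart, fin and arch factor hand2 had 353 and 243 CPM in the flt1 mutants and 50.9 and 56.7 CPM in WT. The pectoral fin factor tbx5a had 70.5 and 114 CPM in the flt1 mutants and 15.3 and 16.7 CPM in WT. The arch and fin gene dlx5a had 23.5 and 39.2 CPM in the flt1 mutants and 165 and 76.7 CPM in WT. The first 2 were higher in both flt1 mutant libraries and dlx5a in both WT libraries. These 3 genes were picked after their values were seen, rest on 12 to 35 cells per library and were given no test. In these cells 1 UMI stood for 11.8 and 3.57 CPM in the flt1 mutants and 2.55 and 3.33 CPM in WT. The low values thus rested on few UMIs.

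Of the duplicated gene pairs examined, the col9a1, sox9 and hapln1 pairs had different leading copies in these cells. Of UMIs of col9a1b and col9a1a, there were 79580 and 0 in the cmn/tbxta cells, but 18 and 3746 in the matn1/col9a1a cells, in whose libraries the col9a1b share lay between 0.350% and 0.873%. Both copies of the matrilin pair lay in the cmn/tbxta cells, where matn3a and matn3b had 41955 and 4516 UMIs, against 8 and 0 in the matn1/col9a1a cells. The same copy led in both subgroups for type II collagen, as for the col11a1 and ucma pairs: col2a1a took 98.5% of type II collagen UMIs in the cmn/tbxta cells and 91.1% in the matn1/col9a1a cells, against 29.8% in other retained cells. The sox9a copy took 10.4% in the cmn/tbxta cells and 64.1% in the matn1/col9a1a cells. For hapln1a and hapln1b there were 27 and 60 UMIs in the cmn/tbxta cells and 994 and 603 in the matn1/col9a1a cells. On these few UMIs, the hapln1a share in the libraries of the cmn/tbxta cells lay between 16.7% and 55.6%. Copies of a pair can be alike in sequence, so that some UMIs could be given to the wrong copy.

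Enzymes and carriers that make sulphated proteoglycan formed a list of 20 genes, of which 16 were higher in the 517 cells than in other retained cells in all 4 libraries. The share over all genes was not counted. Of the 1262 genes with at least 50 CPM in members of every library, 532 were higher in this way. One gene of the list, papss2b, which makes the sulphate donor, had a mean of 357 ± 82.2 CPM in the matn1/col9a1a cells and 77.8 ± 17.2 CPM in the cmn/tbxta cells (SD, n = 4 each). The nucleotide sugar carrier slc35d1a ranged between 223 and 303 CPM in the libraries of the matn1/col9a1a cells and between 83.3 and 124 CPM in those of the cmn/tbxta cells. For ugdh, which makes UDP-glucuronate, the means were 190 ± 87.6 CPM in the matn1/col9a1a cells and 34.1 ± 11.6 CPM in the cmn/tbxta cells. The chondroitin sulphotransferase gene chst11 went the other way, with 18.7 ± 15.6 CPM in the matn1/col9a1a cells and 56.8 ± 14.4 CPM in the cmn/tbxta cells. Summed over the list, the 517 cells had 315 and 474 CPM in the flt1 mutants and 790 and 398 CPM in WT. Fibroblast cells outside the members had 249 and 279 CPM in the flt1 mutants and 250 and 242 CPM in WT.

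Genes for folding and export of collagen were shared. Of 30 such genes in the files, 25 were higher in the 517 cells than in other cells in all libraries. The share over all genes was again not counted. Summed over the list, the 517 cells had 4284 and 4922 CPM in the flt1 mutants and 7518 and 4761 CPM in WT. Fibroblast cells outside the members had 4948 and 5183 CPM in the flt1 mutants and 5180 and 4778 CPM in WT. Only in WT replicate 1 was the sum higher in the 517 cells. The collagen chaperone gene serpinh1b averaged 1198 ± 237 CPM in the matn1/col9a1a cells and 476 ± 179 CPM in the cmn/tbxta cells, and the endoplasmic reticulum chaperone gene hspa5 averaged 758 ± 221 CPM in the matn1/col9a1a cells and 146 ± 22.0 CPM in the cmn/tbxta cells. Both genes were higher in the matn1/col9a1a cells in every library, the opposite order to that of col2a1a, with 9326 to 19729 CPM in the matn1/col9a1a cells and 81088 to 109399 CPM in the cmn/tbxta cells.

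Among signals, igf2b (an insulin-like growth factor) averaged 563 ± 190 CPM in the matn1/col9a1a cells, from 71 of them, and had 0 UMIs in 140 cmn/tbxta cells. The BMP inhibitor gene nog3 averaged 272 ± 111 CPM in the matn1/col9a1a cells and 14.6 ± 3.52 CPM in the cmn/tbxta cells. The growth factor carrier igfbp3 averaged 181 ± 32.4 CPM in the matn1/col9a1a cells and 19.2 ± 5.33 CPM in the cmn/tbxta cells. The FGF receptor gene fgfr3, a brake on growth plate cartilage in mammals, averaged 528 ± 143 CPM in the matn1/col9a1a cells and 437 ± 83.9 CPM in the cmn/tbxta cells, and the libraries overlapped.

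The remaining members fell into 6 subgroups in which the 6 genes made up at most a median of 0.905% of UMIs. Subgroup 3 (98 cells, median depth 686.5 UMIs) was led by muscle genes such as myhz2 and ckmb. Subgroup 4 (42 cells) was led by epd, tnn and genes of the fibroblast list. Subgroup 5 (55 cells) was led by ngs and vimr1, with tyrp1b and gfap among its leading genes, and in it the neural list summed to 4764 CPM, the pigment list to 4627 CPM, the notochord list to 4337 CPM and the floor plate list to 1711 CPM. Subgroup 6 (32 cells) was led by zgc:136930, si:dkey-183i3.5, rbp4 and cldni, with and2 and and3 of the fin fold among its leading genes. Subgroup 7 (26 cells) was led by globin genes, and subgroup 8 (19 cells) by epidermal genes such as cyt1l.

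**Figure D3:**
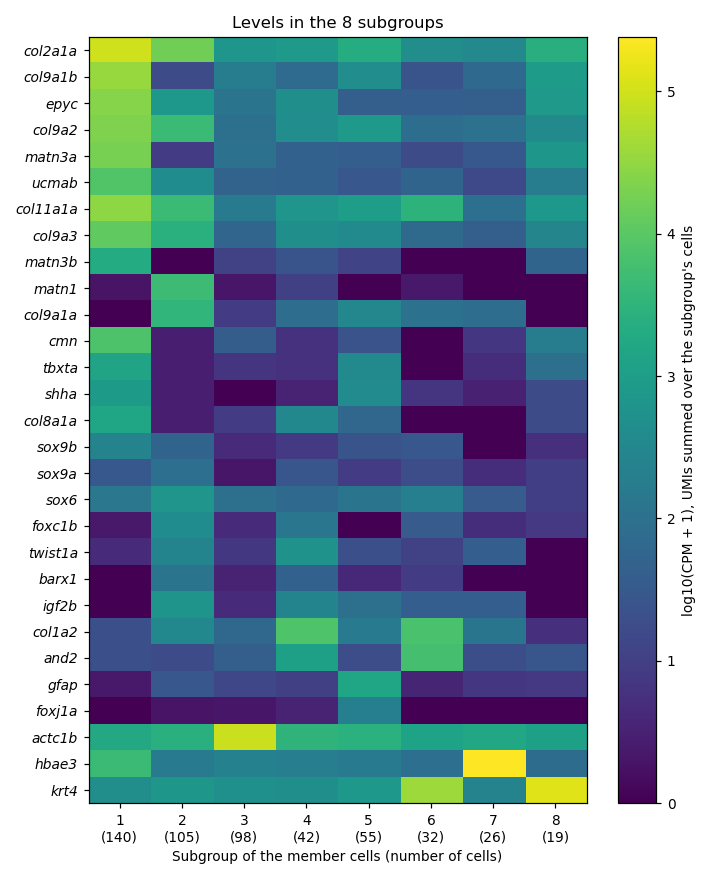
Levels of 29 genes in the 8 subgroups, as log10(CPM + 1) of UMIs summed over the cells of each subgroup (colour scale at right, cell numbers in brackets). Subgroup 1 has the highest cmn and tbxta and no col9a1a, subgroup 2 the highest matn1 and col9a1a, and subgroups 3, 7 and 8 the highest actc1b (muscle), hbae3 (globin) and krt4 (keratin).

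Of the 517 cells, 91 also met the rule for fibroblast cells and 23 carried both actinodin genes and1 and and2. Co-detection can be set beside the rule. Of retained cells, 131 had UMIs of both cmn and tbxta, of which 124 were members, and 71 had both matn1 and col9a1a, of which 56 were members. Summed over the muscle list, members had 35440 and 68357 CPM in the flt1 mutants and 4221 and 106049 CPM in WT, so that the 2 WT libraries were the lowest and the highest. Summed over the epidermis list they had 56089 and 37079 CPM in the flt1 mutants and 26798 and 29963 CPM in WT. Without the 10% of members with most RNA of other cell types, the genotype test below called 0 genes, as it did with them. A count already at 0 cannot show whether such RNA bears on the result. The smallest adjusted p-value by edgeR was 0.0652 without these cells and 0.109 with them. Unadjusted p-values were under 0.05 for 508 genes without them and 470 with them.

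To see whether the cells differed in number between genotypes, their share of retained cells was compared. They made up 3.01% (95% Clopper-Pearson interval 2.52% to 3.57%) and 1.49% (1.19% to 1.84%) of flt1 mutant replicates 1 and 2, and 2.60% (2.06% to 3.23%) and 3.36% (2.95% to 3.82%) of WT replicates 1 and 2. The intervals cover counting error only. The means were 2.25% ± 1.08 in the flt1 mutants and 2.98% ± 0.543 in WT, a difference of -0.728 percentage points. The exact permutation test (two-sided) gave p = 0.667, and 0.333 is the smallest p that 2 against 2 libraries allow. Each cell was also thinned to 1000 UMIs, which left 2818 and 2576 flt1 mutant cells and 2573 and 4153 WT cells. The means were then 1.39% ± 0.0621 in the flt1 mutants and 1.78% ± 0.208 in WT. Cells with all 6 genes made up 0.904% and 0.431% of the flt1 mutants and 0.888% and 0.837% of WT. Without flt1 mutant replicate 2, the library with the lowest median depth, the difference of member shares turned to 0.0342 points.

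Expression was compared between genotypes with edgeR on the summed UMIs of the 517 cells in each library. None of 7479 genes was called at an adjusted p-value under 0.05 (0% called), and 470 had an unadjusted p-value under 0.05. DESeq2 called 11, among them bricd5, si:ch211-80h18.1 and aldh1a3. edgeR called 52 without WT replicate 1. Wherever a library is left out, its genotype has 1 library, which is assumed to vary like the 2 of the other genotype. The smallest adjusted p-value was 0.109 for bricd5, whose log2 fold of flt1 mutant over WT was -6.29 (SE 0.41). Its UMIs numbered 1 and 1 in the flt1 mutants and 78 and 193 in WT. Of those in WT, 75 and 190 lay in the cells of subgroup 5, in 2 and 3 cells.

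A pair of genes had no UMI in flt1 mutant members. The si:ch211-80h18.1 gene had 0 and 0 UMIs in the flt1 mutants and 204 and 263 in WT, and aldh1a3, an enzyme of retinoic acid synthesis, had 0 and 0 in the flt1 mutants and 44 and 88 in WT. A count of 0 in the 213 flt1 mutant cells allows up to 1.06 CPM. In WT, si:ch211-80h18.1 was carried by 4 and 9 cells and aldh1a3 by 2 and 5 cells. Subgroup 5 held 198 and 252 of the WT UMIs of si:ch211-80h18.1 and 26 and 87 of those of aldh1a3, and the cmn/tbxta cells held none. That subgroup had 11 and 5 cells in the flt1 mutants and 7 and 32 in WT.

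Flt1 mutant members carried 160 and 138 UMIs of si:ch211-121a2.2, and WT members 1 and 7, a log2 fold of 5.87 (SE 0.47, adjusted p = 0.146 by edgeR). It was called by DESeq2 (5.94, adjusted p = 1.1e-11), and by edgeR with library totals (adjusted p = 0.0245) and without WT replicate 1 (adjusted p = 0.00333). Other retained cells showed the same direction, with 6383 and 5982 UMIs of it in the flt1 mutants and 89 and 178 in WT. The other higher genes of smallest p without overlap were dpys, zgc:86896, ptpdc1b, sema3bl, FP236812.1, krt15 and lmna, and the other lower ones included her4.2, mrap, mad2l1 and kif11. edgeR called none of them, and DESeq2 called dpys (adjusted p = 0.0278) and zgc:86896 (adjusted p = 0.000669). All of these higher and lower genes except dpys kept their direction in other retained cells. There zgc:86896 had 85.5 and 76.1 CPM in the flt1 mutants and 26.7 and 28.8 CPM in WT. For dpys the genotypes overlapped there, with 1.15 and 1.79 CPM in the flt1 mutants and 0.981 and 1.19 CPM in WT. Of the 841 UMIs of zgc:86896 in members, 800 lay in the 32 cells of subgroup 6.

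Genes of the marker lists were looked up in the same test. For the 6 rule genes, on which the cells were chosen, the log2 folds ranged between 0.27 for ucmab and 0.57 for col9a1b, a description with no test. Of 22 tested genes of the cartilage matrix list 3 were lower at an unadjusted p under 0.05 and none higher, against 3.38% lower and 2.9% higher of all genes tested. In 2 of the 22 the flt1 mutant libraries lay above both WT libraries and in 4 below both, against 17.1% above and 18.3% below of all genes. Of 12 tested notochord genes 3 were higher and 1 lower at an unadjusted p under 0.05, and the libraries lay above in 7 and below in 1. In the cells with all 6 genes, compared below, they lay above in 3 of 10 tested notochord genes and below in 1. Of all genes tested in those cells, 19.2% lay above and 22.5% below. One of the 12 genes, emilin3a, a matrix gene, had 74 and 83 UMIs in flt1 mutant members and 25 and 31 in WT members (log2 fold 2.02, SE 0.41, adjusted p = 0.645 by edgeR). Most of its UMIs were in the matn1/col9a1a cells, with 51 and 57 in the flt1 mutants and 18 and 22 in WT. The BMP ligand gene bmp2b had 56 and 55 UMIs in the flt1 mutants and 20 and 51 in WT (log2 fold 1.32, SE 0.29, adjusted p = 0.645).

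Since flt1 encodes a Vegf receptor, the genes of the Vegf and hypoxia list were counted as well. The flt1 transcript had 0 UMIs in all 517 members, which allows a share of up to 0.580% of cells with a UMI, and 55 and 68 UMIs in other flt1 mutant cells against 34 and 105 in other WT cells. A 3′ tag count does not test for the small deletion of the flt1ka604 allele. The ligand gene vegfaa had 25 and 13 UMIs in flt1 mutant members and 16 and 53 in WT members. Of the 14 tested genes of the list 2 were higher and 1 lower at an unadjusted p under 0.05, against 2.9% higher and 3.38% lower of all genes, and edgeR called none.

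The 146 cells with all 6 genes were also compared alone, a comparison added after the data had been seen. They numbered 39 and 24 in the flt1 mutants and 27 and 56 in WT, and 135 of them were cmn/tbxta cells. edgeR called 12 of 3385 genes (0.355%), 5 higher and 7 lower in the flt1 mutants. Under other settings edgeR called between 16 and 180, and DESeq2 called 15. For these cells CPM were scaled with edgeR's TMM factors in the genotype comparison.

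The 5 higher genes were dpys, h1-10, selenom, hbae1.3 and si:ch211-121a2.2. The dihydropyrimidinase gene dpys, of pyrimidine breakdown, had 87.0 and 69.4 CPM in the flt1 mutants and 9.17 and 10.1 CPM in WT (log2 fold 2.99, SE 0.35, adjusted p = 0.0268 by edgeR), with UMIs in 20 and 12 flt1 mutant cells and in 4 and 6 WT cells. The selenoprotein gene selenom had 1848 and 1574 CPM in the flt1 mutants and 780 and 838 CPM in WT (log2 fold 1.08, SE 0.15, adjusted p = 0.0342), with UMIs in 34 and 21 flt1 mutant cells and in 22 and 44 WT cells. Both genes were thus spread over many cells. Other retained cells showed the same direction for selenom, with 113 and 116 CPM in the flt1 mutants and 54.5 and 41.5 CPM in WT. For si:ch211-121a2.2, with 23 and 18 UMIs in the flt1 mutants and 1 and 0 in WT, the call was lost without flt1 mutant replicate 1 (adjusted p = 0.0691 by edgeR), the highest value over its alternatives, the lowest being 3.5e-09. The linker histone gene h1-10 rested on few cells, 5 and 4 in the flt1 mutants and 1 and 4 in WT. It had 68 and 61 UMIs in the flt1 mutants and 11 and 8 in WT. In the cmn/tbxta cells it had 68 and 30 UMIs in the flt1 mutants and 0 and 7 in WT.

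The globin gene hbae1.3 had 572 and 493 UMIs in flt1 mutant cells with all 6 genes and 123 and 294 in WT (log2 fold 1.80, SE 0.22, adjusted p = 0.0268), from 14 and 7 flt1 mutant cells and 4 and 9 WT cells. The cmn/tbxta cells had 571 and 5 UMIs of it in the flt1 mutants and 123 and 294 in WT. In flt1 mutant replicate 2, nearly all of the 493 UMIs thus lay outside the cmn/tbxta cells, in few cells. Other retained cells had 227948 and 185392 UMIs of hbae1.3 in the flt1 mutants and 129199 and 144754 in WT. The part of its RNA from other cells in the result was not tested. Summed over the erythroid list, other cells had 136393 and 135198 CPM in the flt1 mutants and 172395 and 94837 CPM in WT, so that the list did not follow this gene. A second gene of the same symbol in the files had a log2 fold of 0.05 (SE 0.32, adjusted p = 0.986 by edgeR).

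The 7 lower genes were fabp3, si:ch211-69g19.2, kpna2, mrap, tgm2b, ptgdsb.1 and si:ch73-335l21.4. The fatty acid carrier gene fabp3 had 18.8 and 5.34 CPM in the flt1 mutants and 195 and 157 CPM in WT (log2 fold -3.70, SE 0.40, adjusted p = 0.0268), with UMIs in 9 and 2 flt1 mutant cells and in 17 and 37 WT cells. The melanocortin receptor partner gene mrap had 6.82 and 5.34 CPM in the flt1 mutants and 55.0 and 105 CPM in WT (log2 fold -3.69, SE 0.51, adjusted p = 0.0342). The transglutaminase gene tgm2b had 27.3 and 16.01 CPM in the flt1 mutants and 91.7 and 101 CPM in WT (log2 fold -2.09, SE 0.31, adjusted p = 0.0429), and in other retained cells 15.3 and 11.6 CPM in the flt1 mutants and 47.8 and 32.3 CPM in WT. The importin gene kpna2 had UMIs in 2 and 0 flt1 mutant cells and in 3 and 4 WT cells, so that it rested on few cells. The same held for si:ch211-69g19.2, with UMIs in 1 and 2 flt1 mutant cells and in 4 and 4 WT cells.

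**Figure D4:**
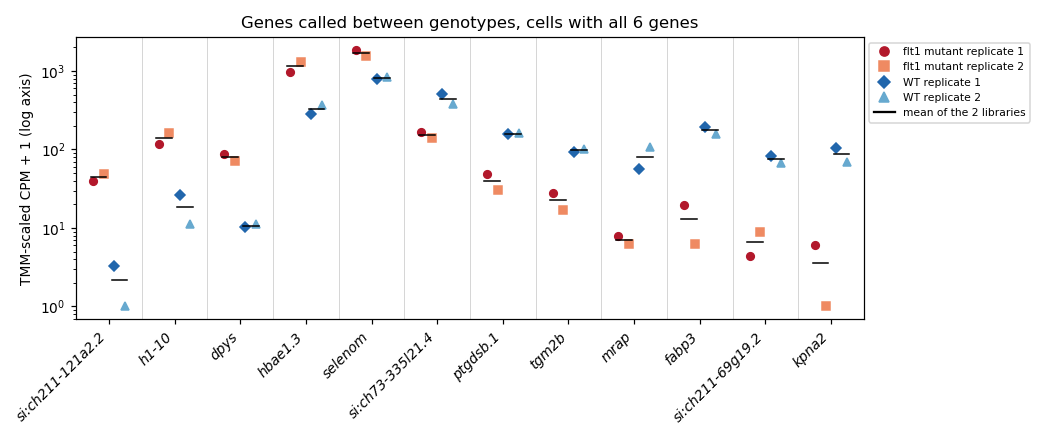
The 12 genes called by edgeR between genotypes in cells with all 6 genes, as TMM-scaled CPM + 1 on a log axis, 1 point per library with a bar for the mean of the 2 libraries. The flt1 mutant points of dpys (87.0 and 69.4 CPM) lie above both WT points, and those of fabp3 (18.8 and 5.34 CPM) below.

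Genes of the cell cycle list were tested in both sets with edgeR and none was called. In the cells with all 6 genes, top2a, a topoisomerase of dividing cells, had 23.9 and 32.0 CPM in the flt1 mutants and 87.1 and 99.95 CPM in WT (log2 fold -1.78, SE 0.29, adjusted p = 0.0571 by edgeR). Its UMIs came from 4 and 2 flt1 mutant cells and from 4 and 8 WT cells. edgeR called top2a with library totals (adjusted p = 0.0403), with no count filter (adjusted p = 0.000271), with the replicate block (adjusted p = 0.00391) and without each library in turn (adjusted p between 0.000297 and 0.0300), and DESeq2 did not. The kinase gene cdk1 had 25.6 and 18.7 CPM in the flt1 mutants and 87.1 and 60.7 CPM in WT (log2 fold -1.65, SE 0.34, adjusted p = 0.109). Of the 16 tested genes of the list 6 had an unadjusted p under 0.05, all lower, against 6.06% lower and 4.87% higher of all genes. The median log2 fold of the list was -0.80, and that of all genes tested -0.01. In 10 of the 16 genes the libraries of the genotypes did not overlap, all with the flt1 mutants lower, against 22.5% lower and 19.2% higher of all genes. Summed over the list, the direction was not particular to these cells. Other retained cells had 955 and 1177 CPM in the flt1 mutants and 1365 and 1276 CPM in WT. Fibroblast cells outside the members had 2630 and 2643 CPM in the flt1 mutants and 2696 and 2743 CPM in WT, a small gap. In the fibroblast cells the genotypes overlapped for top2a, with 92.4 and 98.3 CPM in the flt1 mutants and 89.1 and 113 CPM in WT. They also overlapped there for cdk1, with 75.2 and 67.9 CPM in the flt1 mutants and 64.6 and 96.1 CPM in WT. In other retained cells both genes were lower in both flt1 mutant libraries than in either WT library.

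**Figure D5:**
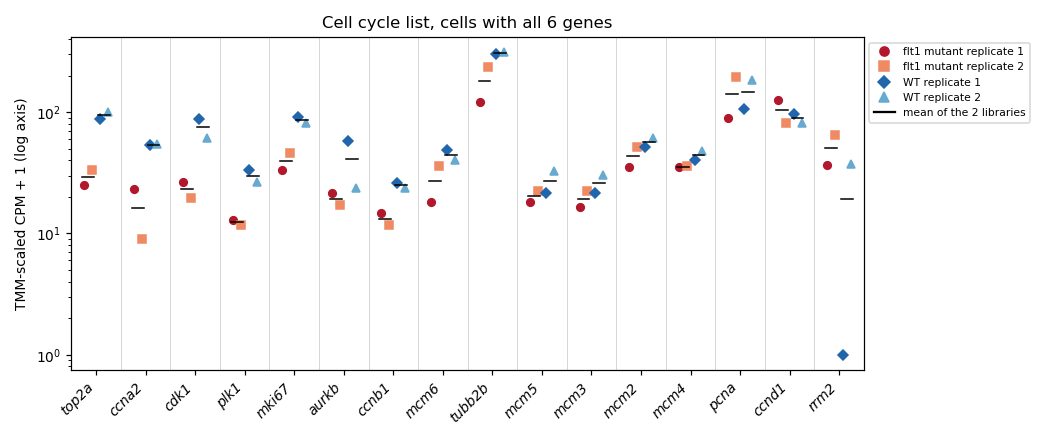
The 16 tested genes of the cell cycle list in cells with all 6 genes, as TMM-scaled CPM + 1 on a log axis, 1 point per library with a bar for the mean of the 2 libraries. The flt1 mutant points of top2a (23.9 and 32.0 CPM) and cdk1 lie below both WT points, while those of ccnd1 and pcna overlap with WT.

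Over all 517 cells, 8 of 20 tested genes of this list had an unadjusted p under 0.05, all lower, against 3.38% of all genes. In 10 the libraries did not overlap, all lower in the flt1 mutants, against 18.3% of all genes. The replication genes mcm2 and pcna, whose libraries overlapped in both sets, had log2 folds of -0.05 and -0.19 over the 517 cells. None of the 20 was called, and top2a had an adjusted p-value of 0.645 by edgeR. Markers of other cell types moved in the same comparison. Of the epidermis list, 7 of 10 tested genes had both flt1 mutant libraries above WT and none below, and of the neural list 1 of 10 above and 6 below. Of all genes tested, 17.1% lay above and 18.3% below. The neural list summed to 256 and 668 CPM in flt1 mutant members and 386 and 810 CPM in WT members, which overlapped. Of the pharyngeal arch list 1 of 9 lay above and 5 below. All 5 tested pigment genes had negative log2 folds, but only 1 had both flt1 mutant libraries below WT. The pigment list summed to 37.5 and 61.3 CPM in flt1 mutant members and 52.4 and 999.7 CPM in WT members, which overlapped. WT replicate 2 was far the highest. The subgroups also differed in cell number between libraries, and the part of these differences in the cell cycle values was not tested.

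The 6 rule genes are given as a description with no test, since the cells were chosen on them. In cells that carried all 6, the log2 folds ranged between 0.09 for ucmab and 0.41 for col9a2. Among genes the rule did not use, col8a1a had 2087 and 1769 CPM in the flt1 mutants and 1103 and 1139 CPM in WT (log2 fold 0.78, SE 0.15, adjusted p = 0.0782), cav1, which forms caveolae, had 87.0 and 133 CPM in the flt1 mutants and 310 and 291 CPM in WT (log2 fold -1.46, SE 0.25, adjusted p = 0.0730), and cmn had 8487 and 8056 CPM in the flt1 mutants and 6540 and 8078 CPM in WT. edgeR called none of these 3, and DESeq2 called cav1 (log2 fold -1.43, adjusted p = 0.0163). For col8a1a and cav1 the direction was not particular to these cells. Other retained cells and fibroblast cells outside the members showed it too. In the fibroblast cells col8a1a had 30.1 and 38.4 CPM in the flt1 mutants and 7.43 and 8.64 CPM in WT. There cav1 had 157 and 111 CPM in the flt1 mutants and 289 and 219 CPM in WT.

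Whether the members differed in their genotype effect from other connective tissue was tested with 3048 fibroblast cells, those outside the members with UMIs of at least 3 of col5a1, col5a2a, col6a1, col6a3, pdgfra and dcn. In the edgeR fit with library as a block, 1 of 12942 genes (0.00773%) was called, and DESeq2 called 2. Unadjusted p-values were under 0.05 for 752. The gene called by edgeR was bricd5, with a difference of log2 folds (members minus fibroblast cells) of -6.94 (SE 0.63, adjusted p = 0.0441). The fibroblast cells had 16 and 23 UMIs of it in the flt1 mutants and 10 and 20 in WT. The call was lost without flt1 mutant replicate 1 (-7.00, adjusted p = 0.989) and without flt1 mutant replicate 2 (-6.87, adjusted p = 0.590), although the difference was as large. The adjusted p ranged between 8.05e-17 and 0.989 over the alternatives.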

How the data were processed

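The deposited matrices hold raw UMI counts for each gene in each barcode called as a cell. Per the file headers the authors made them with Cell Ranger 6.1.1, and the labels name genome build GRCz11. The labels give version 2 of the chemistry and the study's methods version 3. Barcodes with over 200 and under 4000 genes and under 5% of UMIs from 13 mitochondrial genes were retained, as in the study's methods. No doublet caller was run. The labels do not say which embryos each library came from, so p-values measure the spread between these libraries.

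Member cells and gene lists were chosen with earlier results of these data known. Clustering used 1000 variable genes, 15 principal components and Ward linkage (scipy 1.17.1). edgeR 4.0.16 in R 4.3.3 tested UMI sums per library with TMM scaling, filterByExpr, the quasi-likelihood F test and Benjamini-Hochberg adjustment (call at 0.05), and the script was tested on simulated data. DESeq2 1.42.0, library totals, no filter, other member rules and cell filters, a replicate block and leaving out each library were alternatives.

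Named genes were the 6 rule genes, up to 5 of each list by level and list genes at an unadjusted p under 0.01, the leading genes by ratio to other cells, up to 8 genes per direction in the genotype test, duplicate pairs and called genes. Genes outside this rule were chosen after their values were seen. Same-numbered libraries did not deviate together (r = 0.006 in members, -0.023 in cells with all 6 genes). The libraries held 48823693 to 85429263 UMIs.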

Additional observations from a re-analysis of the deposited data

Results flagged for a closer look

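The gene bricd5 was the 1 gene whose genotype effect differed by the test between members and fibroblast cells. The difference of log2 folds was -6.94, from UMIs of 1 and 1 in flt1 mutant members and 78 and 193 in WT members. The WT UMIs lay almost wholly in 5 cells of subgroup 5, and their part in the result was not tested.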

How the results depend on the processing

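The count of called genes in the 517 members was 0 in the edgeR test. It was 3 with library totals, which moved the median of all genes to -0.13 on the log2 scale, 300 with no count filter and 11 with DESeq2, and 12 in the cells with all 6 genes, a setting chosen after seeing the data. Without each library in turn it ranged between 0 and 52. In the cells with all 6 genes the count of 12 was 180 with no count filter, and between 86 and 132 without each library in turn. The count of 1 for the difference from fibroblast cells was 2 with library totals (median of all genes -0.26), 269 with no filter, 2 with DESeq2 and between 0 and 193 without each library in turn. The cause of these differences was not tested.

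The replicate numbers pair no samples by design. As a block they gave 0 called genes in members (348 at an unadjusted p under 0.05, against 470) and 85 in cells with all 6 genes. The share difference between genotypes of -0.728 points ranged between -1.49 and 0.0342 without each library in turn, and was -0.0761 with at least 2 of 6 genes. Alternatives gave 613 values for genes picked in the genotype tests, some of them not mentioned above. Of these values, 474 kept their side of the threshold, 136 gained a call, 3 lost one and none changed sign. Many of the genes were picked because their libraries did not overlap between genotypes. For these, leaving out a library could hardly change the sign. The gains include some of col9a1b and col9a2, on which the cells were chosen, and these are no test result. The 3 that lost a call were bricd5 without flt1 mutant replicate 1 and without replicate 2, and si:ch211-121a2.2 in cells with all 6 genes without flt1 mutant replicate 1. One that gained was anxa3b in cells with all 6 genes, which the main test did not call. It was called by edgeR with library totals (log2 fold -2.54, adjusted p = 0.0286) and by DESeq2 (log2 fold -2.49, adjusted p = 0.00263). Each genotype had 2 libraries, with as few as 24 cells with all 6 genes in a library. A fit without a library assumes that the lone library of its genotype varies like the 2 of the other.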
